A study of Homo sapiens with 15 samples.

Results

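Transcript levels of 10 genes of the extracellular matrix-degrading metalloproteinases and their tissue inhibitors were examined in the HMT3522 human breast epithelial cell series cultured in 3 dimensions within laminin-rich matrix. The members were the matrix metalloproteinase (MMP) genes MMP1, MMP2, MMP3, MMP9, MMP10 and MMP14, the secreted protease gene ADAMTS1, and the tissue inhibitor genes TIMP1, TIMP2 and TIMP3. They were found by symbol in the platform annotation, using only probe sets assigned to 1 gene, and had 16 of the 19707 such probe sets and 10 of the 12149 genes. MMP14 and TIMP3 had 4 probe sets each and the other members 1 each.

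The samples were 9 of T4 cells reverted with an agent (T4R), 3 of T4, the malignant line of the series, and 3 of S1, its nonmalignant counterpart. Each T4R sample had its own agent: GM6001, a broad inhibitor of metalloproteinases; an agent labelled only by its targets, MMPs and ADAMs, and called the MMP and ADAM inhibitor here; TNF protease inhibitor-2, which blocks the protease that releases TNF; PD98059, a MEK inhibitor; LY294002, a PI3K inhibitor; dominant-negative Rap1; Tyrphostin AG 1478 and the antibody mAb225, both against the EGF receptor; and AIIB2, a function-blocking antibody against β1-integrin. All 3 groups come from 1 lineage of cells. Neither dose nor exposure time of any agent is stated in the labels, and although the series text speaks of a vehicle control, it names no sample for it. Total RNA was measured on Affymetrix human genome arrays, and all levels below are the deposited log2 values, so that 1 unit is a 2-fold difference. They come in 2 tables: the first holds S1 samples 1 and 2, all 3 T4 samples and the agents GM6001, LY294002 and MMP and ADAM inhibitor, and the second holds S1 sample 3 and the other 6 agents. Sample medians were 7.33 to 7.4; precision is limited by how many arrays each group has.

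Metalloproteinases of the MMP family are zinc-dependent enzymes made as inactive precursors, and most are secreted. MMP1 cleaves fibrillar collagen, MMP3 and MMP10 are stromelysins with broad matrix substrates, MMP2 and MMP9 are gelatinases that degrade denatured collagen and basement membrane collagen, and MMP14 sits in the cell membrane, where it activates the MMP2 precursor. ADAMTS1 cleaves proteoglycans such as versican and aggrecan. TIMP proteins bind the active site of these enzymes and block it; TIMP2 also takes part in the activation of the MMP2 precursor by MMP14, and TIMP3, which is held in the matrix, also inhibits ADAM17 and several ADAMTS enzymes. In breast tissue these genes are known mostly from stroma and from invasive tumour cells.

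Before the results, 2 samples have to be named. T4 sample 3 differed at least 2-fold from T4 samples 1 and 2 in 356 and 426 of the 9111 genes tested, whereas T4 samples 1 and 2 differed so in 6. S1 sample 3, the S1 sample of the second table, differed at least 2-fold from S1 samples 1 and 2 in 553 and 648 genes, whereas those differed so in 16. Values without these samples are given beside the members' results where they change a call or move a called value by over 1.5 times. Of the epithelial markers, KRT5 and KRT14, keratins of basal epithelium, were at mean percentiles of 99.8 and 99.9 within a sample. The luminal keratins KRT18 and KRT8 were at 95.4 and 84.9, and CDH1 and EPCAM at 93.1 and 66.1. KRT19, also a luminal keratin, lay in the lowest 25% in all 15 samples. Over the 9 fibroblast marker genes measured, the mean log2 level per sample was 7.17 to 7.57 in T4R, 7.17 to 7.29 in T4 and 7.05 to 7.11 in S1. LUM, a proteoglycan gene of fibroblasts, lay in the lowest 25% in all 15 samples, while COL1A1, a fibrillar collagen gene, was at a mean percentile of 81.1. The 5 endothelial markers averaged 6.89 to 7.09 in T4R, 6.85 to 6.95 in T4 and 6.92 to 7.10 in S1. The 7 leukocyte markers averaged 7.08 to 7.36 in T4R, 7.15 to 7.28 in T4 and 6.97 to 7.12 in S1. Within the lowest 25% in at least 8 samples were 3 of the 9 fibroblast markers (LUM, PDGFRA and FAP), 2 of the 5 endothelial markers (PECAM1 and CDH5) and 2 of the 7 leukocyte markers (PTPRC and CD68). The markers called in T4 against S1 were the luminal keratin gene KRT18, higher by 0.98 ± 0.21 (SE, adjusted p = 0.00331 by limma), and the monocyte gene CD14, higher by 0.97 ± 0.26 (0.0132) and by 0.59 (0.0199) without T4 sample 3. In T4R against T4, KRT18 was lower by 1.07 ± 0.19 (0.00255) and the epithelial adhesion gene EPCAM was higher by 0.93 ± 0.24 (0.0214), a call that was lost without T4 sample 1 (0.0826) or 3 (0.0512) or the LY294002 sample (0.0536). In T4R against S1, COL1A1 was higher by 1.46 ± 0.43 (0.0237), CD14 by 0.77 ± 0.21 (0.0183), the luminal keratin gene KRT8 by 0.71 ± 0.22 (0.0342) and the collagen gene COL3A1 by 0.21 ± 0.07 (0.0486). Without S1 sample 3 none of these 4 calls held, at 0.41 (0.487) for COL1A1, 0.57 (0.186) for CD14, 0.24 (0.53) for KRT8 and 0.14 (0.342) for COL3A1, which lost its call under 14 of 24 alternatives in all. Fibroblast and endothelial markers had 0 of 5 and 0 of 2 tested genes called in T4R against T4 and in T4 against S1. The part of these cell types in the results below was not tested.

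Among the MMP genes, MMP1 and MMP10 lay near the low end of the values in nearly every sample, and MMP3 and MMP9 in some. A probe set was taken as near the low end in a sample when its value fell in the lowest 25% of all 22215 probe sets of that sample, a limit that lay between 6.87 and 6.91. MMP10 lay there in all 15 samples, at a mean percentile of 3.5, and MMP1 in 14 of 15, at a mean percentile of 6.1. MMP3 and MMP9 lay there in 6 samples each, at mean percentiles of 28.9 and 25.3. MMP2 was there in 2 samples and ADAMTS1 in 2. MMP14, TIMP1, TIMP2 and the TIMP3 probe set used for tests were never in the lowest 25%. Of the other TIMP3 probe sets, 201147_s_at was there in 6 samples, 201150_s_at in 4 and 201148_s_at in 0. With the lowest 10% as the limit, MMP10 was near the low end in 13 samples and MMP1 in 14. Brightness differs between probes, so these places say nothing of the order of the members' transcript amounts, and no detection calls were used here.

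**Figure D1:**
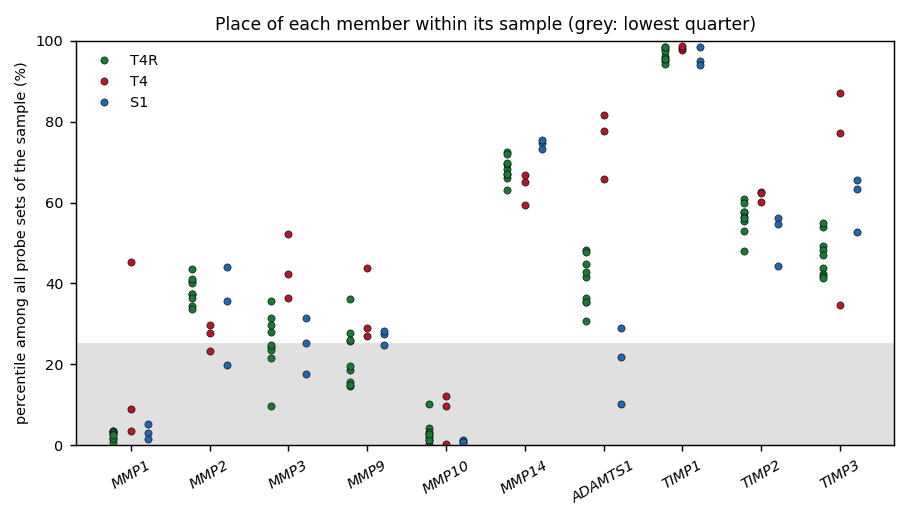
Percentile of each member's probe set among all probe sets of the same sample, 1 point a sample, with T4R, T4 and S1 from left to right and the lowest 25% in grey. TIMP1 lies between percentiles 94.0 and 98.7, MMP10 between 0.3 and 12.2, and ADAMTS1 ranges from 10.3 to 81.6.

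The filter on low values left out the dimmest 25% of genes by their mean over all samples, at a limit of 6.97, and 9111 genes were tested. MMP2, MMP14, ADAMTS1, TIMP1, TIMP2 and TIMP3 passed it, and these 6 also lay above the limit when T4 was left out of the mean. MMP1, MMP3, MMP9 and MMP10 did not pass; their values come from the same fit made over all 19707 probe sets with no filter. The tests were limma's, with the table as a fixed block and Benjamini-Hochberg adjustment over all genes or probe sets of the fit, and a call means an adjusted p under 0.05. Since no label states that a group's samples were separate cultures, each p measures the spread between these samples alone, and that spread may be technical. All groups share a common estimate of spread. Each T4R sample had its own agent, so that estimate also holds differences between agents, in T4 against S1 as well.

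In T4 against S1, the question is which genes of matrix proteolysis differ between malignant and nonmalignant cells in the same matrix. ADAMTS1, TIMP1 and TIMP2 were higher in T4, MMP14 was lower, and MMP2 and TIMP3 did not pass the test. Of the 9111 genes tested, 26.9% passed, 14.6% higher and 12.3% lower, against 3 higher and 1 lower of the 6 members tested. The median difference of these 6 was 0.52, beside 0.0072 over all genes tested. Among the dim members, MMP3 was higher in T4, and MMP1, MMP9 and MMP10 did not pass. In that fit 17.4% of probe sets passed. Where groups are said below not to overlap, the share of all probe sets without overlap was not counted.

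ADAMTS1 was at 8.81, 8.08 and 9.09 in the 3 T4 samples, against 6.88, 6.96 and 6.73 in the 3 S1 samples. As in any bulk sample, more cells with a transcript and more transcript per cell cannot be told apart. Every T4 sample lay above every S1 sample, while the S1 samples lay at percentiles 21.8, 29.1 and 10.3, so that the fold is set against a group near the low end of the values. The fitted difference was 1.83 ± 0.20 (SE), or 3.55-fold, with an adjusted p of 2.93e-05 by limma. Under the alternatives tried, including each left-out sample, it stayed called, at 1.53 to 2.12.

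TIMP1, the secreted inhibitor induced by growth factor signalling in many cells, was at 11.76, 12.03 and 12.27 in T4, against 10.86, 10.62 and 12.00 in S1. The groups overlapped because S1 sample 3, from the second table, was as bright as T4, whereas S1 samples 1 and 2, from the same table as T4, lay below all T4 samples. With the table as a block TIMP1 was 1.16 ± 0.31 (SE) higher in T4, or 2.23-fold, with an adjusted p of 0.0142 by limma. Within the first table alone the difference was 1.28 (adjusted p = 0.00143). It missed the threshold with no table block, at 0.86 (adjusted p = 0.169), with quantile normalization across tables, at 0.85 (0.198), and without S1 sample 2, at 1.01 (0.0719).

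TIMP2 was at 7.81, 7.92 and 7.89 in T4, against 7.56, 7.51 and 7.23 in S1. The ranges did not overlap, but the step was small: 0.41 ± 0.12 (SE), or 1.33-fold, with an adjusted p of 0.0235 by limma. This call was lost without S1 sample 2 (adjusted p = 0.0514), S1 sample 3 (0.0606), T4 sample 2 (0.0619) or T4 sample 3 (0.0548), and with both samples numbered 3 left out it stood at 0.33 (0.108).

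MMP14, read by its brightest probe set, 160020_at, was at 8.06, 8.13 and 7.74 in T4, against 8.51, 8.45 and 8.62 in S1. All T4 samples lay below all S1 samples, and the fitted difference was -0.47 ± 0.11 (SE), 1.39-fold lower in T4, with an adjusted p of 0.00723 by limma. The other 3 MMP14 probe sets were also lower in every T4 sample than in every S1 sample, by 0.42, 0.19 and 0.24. None of them passed the test (adjusted p of 0.148, 0.354 and 0.115 by limma). All read the same gene on the same arrays and are not separate evidence. MMP14 missed the threshold when its probe set of largest interquartile range stood for it, at -0.42 (adjusted p = 0.115), or the mean of its probe sets did, at -0.33 (0.0511).

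The stromelysin gene MMP3 was at 7.14, 7.04 and 7.45 in T4, against 6.91, 6.84 and 6.98 in S1. T4 lay above S1 in every sample, by 0.34 ± 0.09 (SE), or by limma an adjusted p of 0.0158. The call was lost within the first table alone, at 0.34 (adjusted p = 0.0943), without S1 sample 2 (0.0685), and with both samples numbered 3 left out, at 0.22 (0.0504), and was kept without T4 sample 3 alone, at 0.22 (0.033). Its levels were close to the low end in both groups.

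MMP1, the interstitial collagenase, was at 6.71, 6.62 and 7.21 in T4, against 6.62, 6.67 and 6.55 in S1. Only T4 sample 3 stood above the rest, at percentile 45.2 of its sample, and the difference of 0.22 ± 0.11 (SE) did not pass the test (adjusted p = 0.235 by limma); without T4 sample 3 it was 0.035. The gelatinase gene MMP9 was at 7.17, 6.95 and 6.91 in T4, against 6.91, 6.94 and 6.94 in S1, with a difference of 0.06 (adjusted p = 0.672). MMP10 was at 6.75, 6.73 and 6.44 in T4, against 6.55, 6.51 and 6.52 in S1, a difference of 0.13 (adjusted p = 0.326) that passed without T4 sample 3, at 0.23 (0.0409), and with array weights (0.0458). MMP2 was at 6.87, 6.95 and 6.92 in T4, against 7.04, 6.86 and 7.22 in S1, with overlapping ranges and a difference of -0.10 ± 0.09 (SE, adjusted p = 0.469).

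In a fit of the S1 and T4 samples alone, with no table term and the replicate number as a block, ADAMTS1 remained called at 1.80 (adjusted p = 0.0144). There TIMP1 at 0.86 (0.063), TIMP2 at 0.44 (0.0693), MMP14 at -0.55 (0.0591) and MMP3 at 0.30 (0.118) missed the threshold. With the replicate block and the table block together no member's call changed.

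**Figure D2:**
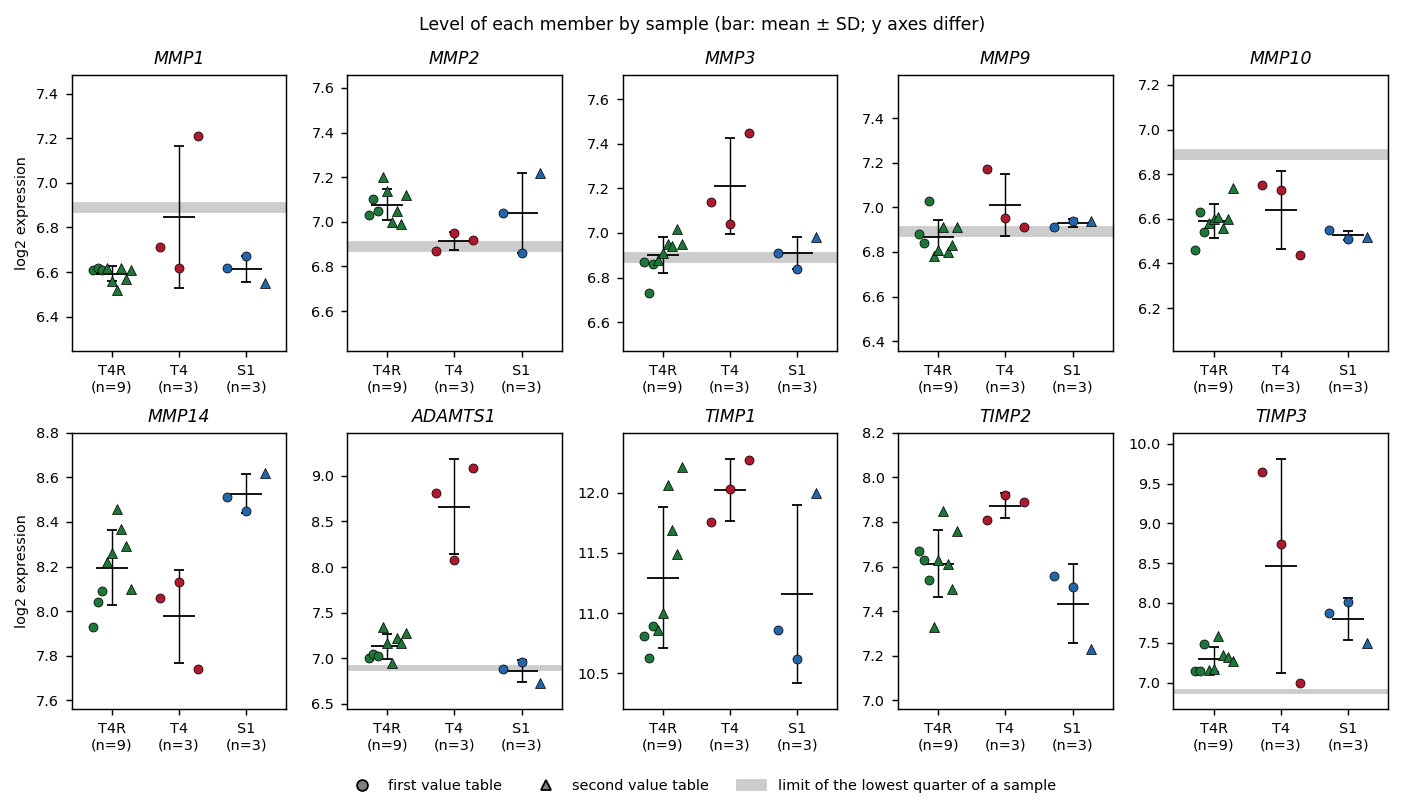
Log2 level of each member in every sample by its test probe set, with T4R (n = 9), T4 (n = 3) and S1 (n = 3) from left to right; bars are mean ± SD, circles the first table, triangles the second, and the grey band the limit of the lowest 25%; the y axes differ. ADAMTS1 averages 7.13 in T4R, 8.66 in T4 and 6.86 in S1, and the T4 values of TIMP3 spread from 7.0 to 9.64.

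In T4R against T4, the question is whether reverting agents of different targets leave these genes at different levels than in T4. ADAMTS1 and TIMP1 were lower in T4R, no member was higher, and MMP2, MMP14, TIMP2 and TIMP3 did not pass. Over all 9111 genes 14.9% passed, 6.46% higher and 8.44% lower, against 0 higher and 2 lower of the 6 members tested. The median difference of the 6 was -0.66, beside -0.0041 over all genes. Of the dim members MMP3 was lower, in a fit in which 8.91% of probe sets passed. T4 enters this comparison and T4 against S1 alike, so the values of both are given side by side and not as independent evidence.

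ADAMTS1 had a lowest value of 6.94, a median of 7.16 and a highest of 7.34 over the 9 T4R samples, against 8.81, 8.08 and 9.09 in T4. All 9 T4R samples lay below all 3 T4 samples, and they spread less among themselves than T4 did. They were at percentiles 30.6 to 48.2 of their samples, closer to the low end of the values than T4. The fitted difference was -1.58 ± 0.18 (SE), 2.99-fold lower in T4R, with an adjusted p of 0.000116 by limma, and it stayed called under every alternative tried, at -1.87 to -1.37.

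TIMP1 had a lowest value of 10.63, a median of 11.0 and a highest of 12.21 in T4R, against 11.76, 12.03 and 12.27 in T4. The 3 agents measured in the table of T4 were at 10.81 (GM6001), 10.63 (MMP and ADAM inhibitor) and 10.89 (LY294002), all below T4. Of the 6 agents in the second table, TNF protease inhibitor-2 at 10.86 and PD98059 at 11.0 were close to these, and mAb225 at 11.49, Tyrphostin AG 1478 at 11.69, dominant-negative Rap1 at 12.06 and AIIB2 at 12.21 reached toward or into the range of T4.

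With the table effect on TIMP1, 0.90 higher in the second table, removed by the fit, T4R was lower by 1.32 ± 0.29 (SE), or 2.5-fold, with an adjusted p of 0.0083 by limma. The first table alone gave -1.24 (adjusted p = 0.00233). Without a table block the difference was -0.73 (0.177), and with quantile normalization across tables -0.69 (0.221), neither of them called. The table term is estimated from S1 and, with the agents of both tables taken as 1 group, from T4R, so among the T4R samples a difference between tables and a difference between agents cannot be told apart.

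MMP3 had a lowest value of 6.73, a median of 6.91 and a highest of 7.02 in T4R, against 7.14, 7.04 and 7.45 in T4. The groups did not overlap, although the highest T4R sample and the lowest T4 sample were nearly level. The fitted difference was -0.39 ± 0.08 (SE), with an adjusted p of 0.00926 by limma, and -0.27 without T4 sample 3 (0.0169); within the first table alone it missed the threshold, at -0.39 (0.0672).

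MMP2 had a lowest value of 6.99, a median of 7.05 and a highest of 7.20 in T4R, against 6.87, 6.95 and 6.92 in T4. Each T4R sample was above each T4 sample in the deposited values. With the fitted table effect removed, T4R lay at 6.90 to 7.12 and overlapped T4. The fitted difference of MMP2, 0.10 ± 0.08 (SE), did not pass (adjusted p = 0.448 by limma). TIMP2 had a lowest value of 7.33, a median of 7.63 and a highest of 7.85 in T4R, against 7.81, 7.92 and 7.89 in T4, with a difference of -0.21 ± 0.11 (adjusted p = 0.253). That of TIMP2 passed in the first table alone, at -0.26 (0.0459), and with array weights (0.035).

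MMP14 had a lowest value of 7.93, a median of 8.22 and a highest of 8.46 in T4R, against 8.06, 8.13 and 7.74 in T4. The ranges overlapped, the fitted difference was 0.06 ± 0.10 (SE, adjusted p = 0.739 by limma), and its sign turned under several alternatives. MMP1, MMP9 and MMP10 differed by -0.22 ± 0.11, -0.11 and -0.08 (adjusted p of 0.243, 0.43 and 0.608). For MMP1 this was -0.041 without T4 sample 3.

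In T4R against S1, the comparison asks whether the reverted cells differ from the nonmalignant line. MMP14 was lower in T4R and no other member passed: 0 higher and 1 lower of 6, where 23.2% of all genes passed, 11.8% higher and 11.4% lower. The median difference of the 6 members was -0.08, beside 0.0042 over all genes. Over all probe sets 14.8% passed, and none of the 4 dim members did.

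MMP14 had a lowest value of 7.93, a median of 8.22 and a highest of 8.46 in T4R, against 8.51, 8.45 and 8.62 in S1. In the deposited values only dominant-negative Rap1, at 8.46, reached the lowest S1 sample, which was in the other table, and the other agents lay below S1. With the fitted table effect of 0.23 removed, T4R lay at 7.87 to 8.22 and S1 at 8.38 to 8.51. The difference was -0.41 ± 0.09 (SE), 1.33-fold lower in T4R, with an adjusted p of 0.00641 by limma, and it was called under each of the 27 alternatives tried, at -0.59 to -0.33. A second MMP14 probe set, 202827_s_at, was also lower, by 0.59 (adjusted p = 0.0196), with T4R at 7.34 to 8.46 and S1 at 7.78, 7.88 and 8.63, and these ranges overlapped. The remaining probe sets, 202828_s_at at -0.30 (adjusted p = 0.0635 by limma) and 217279_x_at at -0.17 (0.197), were not called.

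ADAMTS1 was 0.25 ± 0.16 (SE) above S1 in T4R (95% confidence interval -0.11 to 0.60, adjusted p = 0.317 by limma). The T4R samples, at 6.94 to 7.34, overlapped S1 at 1 end only, where dominant-negative Rap1 at 6.94 lay below S1 sample 2 at 6.96. TIMP1 differed by -0.17 ± 0.26 (0.706), TIMP2 by 0.20 ± 0.10 (0.173) and TIMP3 by -0.48 ± 0.38 (0.403). The sign of the TIMP1 difference turned under alternatives that drop the table block or S1 sample 3.

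**Figure D3:**
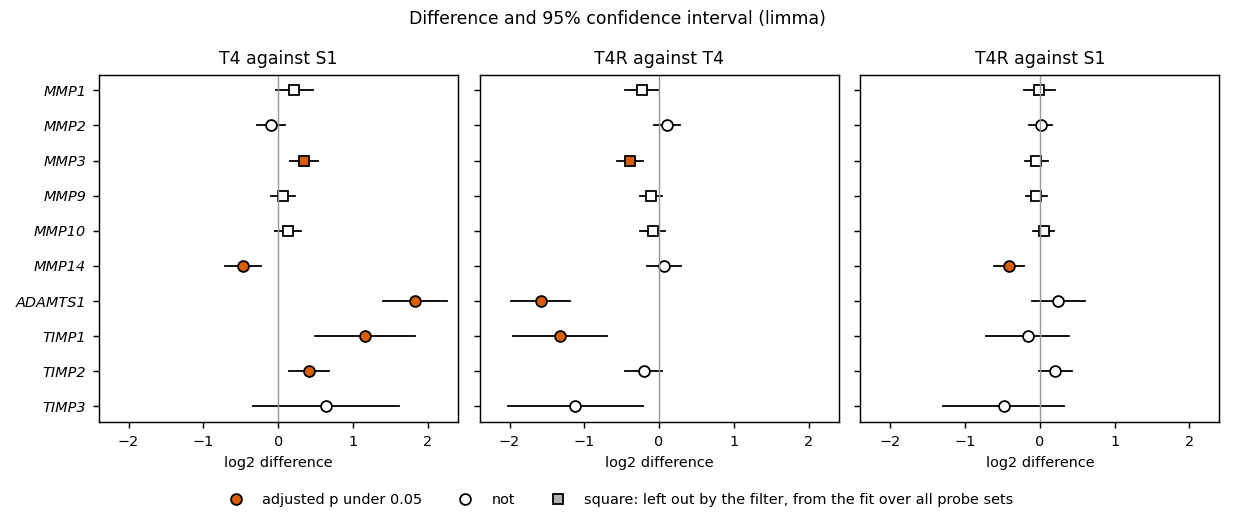
Fitted log2 difference of each member with its 95% confidence interval in T4 against S1, T4R against T4 and T4R against S1; filled symbols have an adjusted p under 0.05, and squares mark the members left out by the low-value filter. ADAMTS1 is at 1.83, -1.58 and 0.25 from left to right, and MMP14 at -0.47, 0.06 and -0.41.

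TIMP3, the matrix-bound inhibitor, was the member with the widest spread in T4, an SD of 1.34. By the probe set used for tests, 201149_s_at, it was at 9.64, 8.74 and 7.0 in T4, against 7.88, 8.01 and 7.50 in S1, and at 7.14 to 7.58 in the 9 T4R samples. T4 samples 1 and 2 lay above every other sample of the study, and T4 sample 3 below every other sample. The same order within T4 was read by the other 3 probe sets: 201147_s_at was at 9.20, 8.52 and 6.83, 201148_s_at at 8.68, 8.16 and 7.18, and 201150_s_at at 9.46, 8.77 and 6.77. Over the 15 samples the 4 probe sets correlated at Pearson's r of 0.949 to 0.99, as probe sets of 1 gene measured on the same arrays. In the fit over all probe sets, those other than 201149_s_at differed by 0.26 to 0.71 in T4 against S1. They differed by -0.55 to -1.24 in T4R against T4 and by -0.22 to -0.97 in T4R against S1, and none was called.

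With all samples TIMP3 differed by 0.64 ± 0.45 (SE) in T4 against S1 (adjusted p = 0.337 by limma) and by -1.12 ± 0.42 in T4R against T4 (0.0946), so neither passed. Without T4 sample 3 the differences were 1.37 (adjusted p = 0.00116) and -1.85 (0.000224), and with both samples numbered 3 left out 1.24 (0.00232) and -1.93 (0.000182). With array weights, which lower the weight of samples that stand apart, they were 1.29 (0.000999) and -2.0 (1.26e-05). T4R against T4 was also called with no table block, at -1.17 (0.0331), and with quantile normalization across tables, at -1.14 (0.0327). T4R against S1 was called with array weights, at -0.72 (0.0246), and with both samples numbered 3 left out, at -0.69 (0.0362). Labels do not say how T4 sample 3 differed from the other two.

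**Figure D4:**
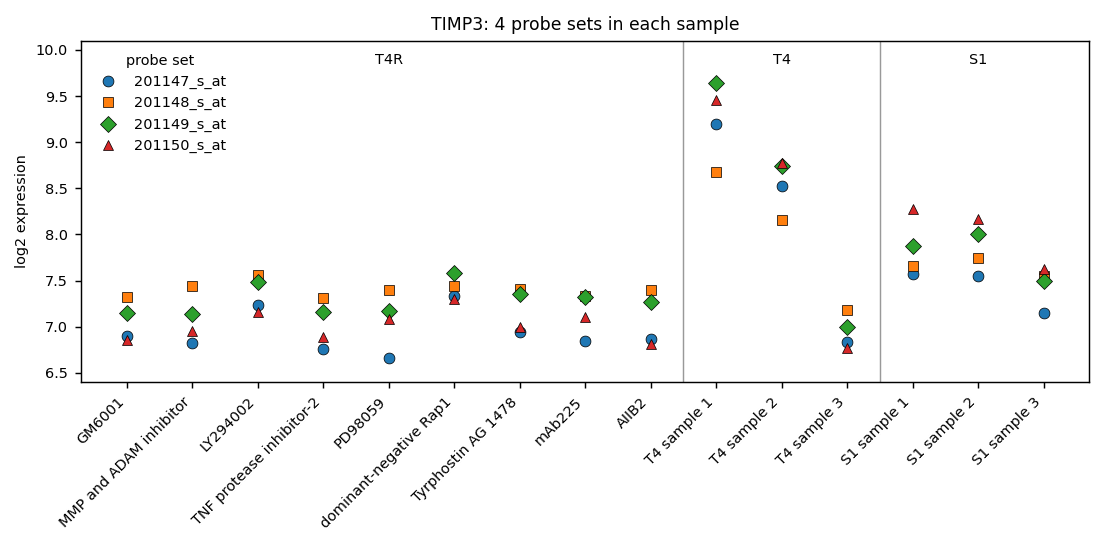
Log2 level of the 4 TIMP3 probe sets in each sample, with the 9 T4R samples on the left, T4 in the middle and S1 on the right. All 4 probe sets are high in T4 samples 1 and 2 and near the T4R samples in T4 sample 3.

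Single agents, with 1 sample each, are described by their distance from the mean of T4 once the fitted effect of the table is taken out, and have no test. ADAMTS1 was below the T4 mean with 9 of 9 agents, from -1.40 with TNF protease inhibitor-2 to -1.80 with dominant-negative Rap1. This narrow range covered agents against proteases, kinases, the EGF receptor, β1-integrin and Rap1 alike. TIMP1 was below with 9 of 9, over the widest range among the members. It ran from -0.71 with AIIB2 and -0.86 with dominant-negative Rap1 to -1.92 with PD98059 and -2.06 with TNF protease inhibitor-2. These agents are all in the second table, so table and agent cannot be told apart here. In the deposited values AIIB2, at 12.21, and dominant-negative Rap1, at 12.06, lay above the T4 mean of 12.02, and the other agents lay below it. TIMP3 was below with 9 of 9, at -0.81 to -1.32, against a T4 mean that averages 2 high samples and 1 low sample.

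MMP3 was below the T4 mean with 9 of 9 agents, at -0.31 to -0.48, and MMP1 with 9 of 9, at -0.19 to -0.28, a shift no larger than the SD of 0.32 within T4. TIMP2 was below with 8 of 9, the exception being dominant-negative Rap1 at 0.06, and its lowest value was -0.46 with TNF protease inhibitor-2. MMP9 and MMP10 were below with 8 of 9 each, within 0.2 of the T4 mean throughout. MMP14 was above with 7 of 9, at -0.11 with AIIB2 to 0.25 with dominant-negative Rap1, and MMP2 was above with 7, at -0.01 to 0.20.

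**Figure D5:**
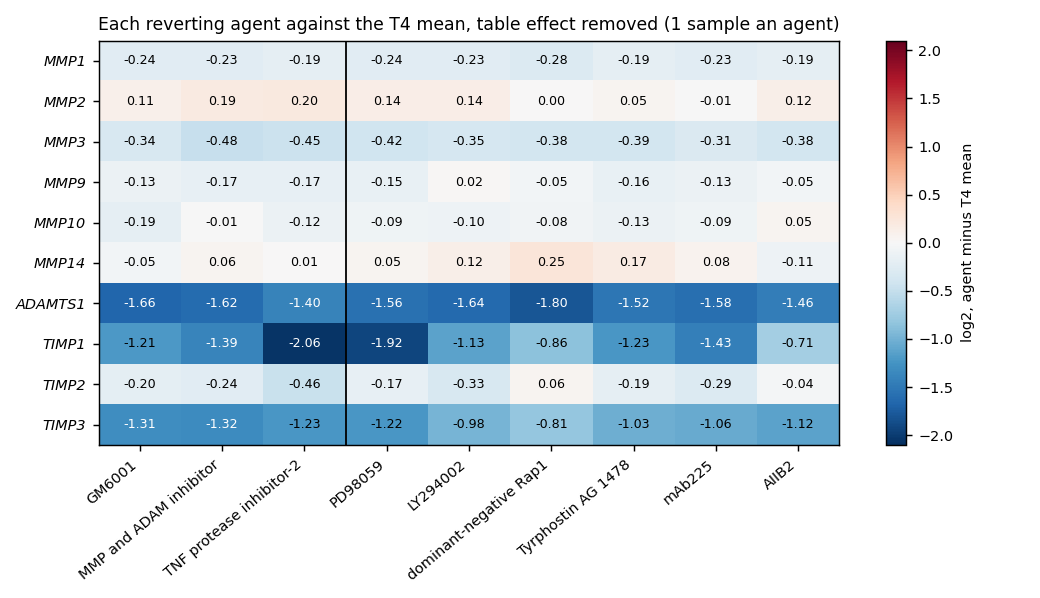
Log2 difference of each agent's sample from the T4 mean, table effect removed, for each member (rows) and agent (columns, with the 3 protease inhibitors left of the line); blue is below T4 and red above. ADAMTS1 is at -1.40 to -1.80 in all 9 columns, and TIMP1 ranges from -0.71 to -2.06.

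The 3 agents named as inhibitors of these or related proteases (TNF protease inhibitor-2, GM6001, and the agent against MMPs and ADAMs) were set against the other 6 agents. Class and table largely coincide. Of the first table's agents only LY294002 was not a protease inhibitor, and of the second table's agents only TNF protease inhibitor-2 was. None of the 6 members tested passed, and neither did any other gene: 0 of 9111 by limma (0%), with 475 genes, or 5.21%, at an unadjusted p under 0.05, none of them a member. With array weights 30 genes passed. ADAMTS1 differed by 0.04 ± 0.19 (SE) between these classes of agents, with a 95% confidence interval of -0.38 to 0.45. TIMP1 differed by -0.42 ± 0.28 (interval -1.02 to 0.18) and TIMP2 by -0.17 ± 0.11 (-0.41 to 0.06). MMP2 and MMP14, the gelatinase and the membrane protease that activates it, differed by 0.12 ± 0.08 and -0.11 ± 0.11. The intervals do not show that the classes act alike.

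Each class was also set against T4. With protease inhibitors ADAMTS1 was at -1.57 and TIMP1 at -1.50 (adjusted p of 0.000614 and 0.00759 by limma), 2 of 6 members, in a comparison in which 11.1% of genes passed, 4.62% higher and 6.5% lower. With the other agents ADAMTS1 was at -1.60 and TIMP1 at -1.08 (0.000947 and 0.0487), also 2 of 6 members, with 10.9% of genes passing, 4.63% higher and 6.27% lower. This TIMP1 call was marginal and was not made in the fit over all probe sets (adjusted p = 0.0696 by limma). The alternatives were not run for either class against T4. MMP3 in the fit over all probe sets was at -0.41 (0.0156) with protease inhibitors and -0.35 (0.0467) with the others.

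Patterns of the called members over the 15 samples were compared with those of all genes tested, by Pearson's r after removal of the table effect, as a description in which the points share arrays and groups. ADAMTS1 was most like BMAL2 (r = 0.962), SCG5 (0.960) and KCTD14 (0.958). TIMP1 was most like the integrin genes ITGA6 (0.928) and ITGB5 (0.926) and the interleukin receptor gene IL4R (0.923). TIMP2 was most like ADRA2C (0.918), LITAF (0.915) and ANXA11 (0.913), and MMP14 most like the polarity kinase gene PRKCZ (0.954), EEF1D (0.945) and ACTMAP (0.932). Among the members, ADAMTS1 and TIMP1 correlated at 0.732, TIMP1 and TIMP2 at 0.635, ADAMTS1 and TIMP2 at 0.57, and MMP14 and ADAMTS1 at -0.516.

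Of 15 other MMP genes measured, 7 passed the low-value filter. MMP19 was higher in T4 than in S1 by 1.3 ± 0.30 (SE, adjusted p = 0.00573 by limma) and lower in T4R than in T4 by 1.26 ± 0.28 (0.00882). Its levels averaged 8.11 ± 0.43 in T4R, 9.14 ± 0.48 in T4 and 7.95 ± 0.02 in S1 (SD), and both calls held under the alternatives tried, at 0.66 to 1.56 and -1.58 to -0.69. MMP24, a membrane-type member, went the other way, at -0.54 ± 0.17 (0.0316) and 0.60 ± 0.16 (0.0223), and both calls were lost without T4 sample 1 (0.0874 and 0.0745) or T4 sample 2 (0.0682 and 0.0543), the first also without S1 sample 1 (0.143) or 2 (0.173). That makes 1 higher and 1 lower of 7 in each of these comparisons, and the medians were 0.07 and -0.03. Of all genes tested, 26.9% passed in T4 against S1 and 14.9% in T4R against T4.

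Among 17 ADAM genes measured, some of which encode membrane proteases that shed growth factors and other surface proteins, 9 were tested. The shares of all genes called were again 26.9% in T4 against S1 and 14.9% in T4R against T4. In T4 against S1, ADAM17 was higher by 0.49 ± 0.11 (SE, adjusted p = 0.00426 by limma) and ADAM9 by 0.63 ± 0.16 (0.0102), and none was lower. In T4R against T4, ADAM17 was lower by 0.40 ± 0.10 (0.0167), ADAM15 was higher by 0.68 ± 0.18 (0.0234), and the median of the 9 was 0.02 in both comparisons. ADAM15 was not called without T4 sample 3, at 0.47 (0.102), the MMP and ADAM inhibitor (0.0703) or LY294002 (0.0565). ADAM17, the sheddase that TNF protease inhibitor-2 targets, was not called without a table block in either comparison, at 0.39 (0.0768) and -0.19 (0.316), nor in T4R against T4 without T4 sample 2 (0.0663) or LY294002 (0.0512). Of 11 other ADAMTS and ADAMTS-like genes measured only 2 were bright enough to be tested, and 0 of 2 passed in either comparison.

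Other inhibitors and activators of extracellular proteolysis had 13 genes tested, beside shares of all genes called of 26.9% in T4 against S1 and 14.9% in T4R against T4. In T4 against S1, 4 were higher and 1 lower, with a median of 0.11, among them THBS1, a matrix protein bound by several proteases, at 3.06 ± 0.44 (SE, adjusted p = 0.000263 by limma), the urokinase receptor PLAUR at 1.15 ± 0.20 (0.000941), and the proteoglycan SPOCK1 at -2.19 ± 0.56 (0.0107), which was at -1.45 (0.0295) without T4 sample 3 and lost its call without S1 sample 2, at -1.95 (0.0563). In T4R against T4, 0 were higher and 5 lower, with a median of -0.32, including THBS1 at -3.38 ± 0.41 (0.000179), the plasminogen activator PLAT at -1.56 ± 0.25 (0.00124) and PLAUR at -1.10 ± 0.19 (0.00172).

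Substrates of these enzymes, taken as matrix and shed proteins, had 15 genes tested. In T4 against S1, where 26.9% of all genes passed, 7 were higher and 0 lower, with a median of 0.79. In T4R against T4, where 14.9% of all genes passed, 0 were higher and 7 lower, with a median of -0.60. HBEGF, a growth factor released by shedding, was at 2.89 ± 0.17 (SE, adjusted p = 1.03e-07 by limma) and -2.83 ± 0.15 (1.15e-07), and under the alternatives at no less than 1.65 and no more than -1.63. FN1, which encodes fibronectin, was at 3.86 ± 0.42 (2.93e-05) and -3.93 ± 0.39 (3.4e-05), and the basement membrane collagen gene COL4A1 at 2.15 ± 0.25 (4.63e-05) and -2.62 ± 0.23 (1.26e-05).

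AP-1 and ETS factors, known to drive transcription of many MMP genes and of TIMP1, had 12 genes tested. In T4 against S1, where 26.9% of all genes passed, 4 were higher and 1 lower, with a median of 0.41. In T4R against T4, where 14.9% of all genes passed, 0 were higher and 4 lower, with a median of -0.43. FOSL1, an AP-1 subunit, was at 2.05 ± 0.12 (SE, adjusted p = 1.03e-07 by limma) in T4 against S1 and at -2.29 ± 0.11 (2.6e-08) in T4R against T4. ETV5, an ETS factor, was at 1.27 ± 0.32 (0.0106) and -1.53 ± 0.30 (0.00464). Of the same family, ETV1 was at 0.83 ± 0.24 (0.0215) in T4 against S1 and ETS1 at -0.37 ± 0.10 (0.0228) in T4R against T4. The call of ETV5 in T4 against S1 was lost without S1 sample 1 (0.0566) or 2 (0.0587), that of ETV1 without S1 sample 1 or 2 (0.0824 each) or T4 sample 2 (0.0553) or 3 (0.0806), and that of ETS1 without T4 sample 1 (0.0956) or the sample of GM6001 (0.0737) or of the MMP and ADAM inhibitor (0.0503).

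To show what lies before the start sites of members whose levels were called or that carry such a motif, 250 bases upstream are printed for TIMP1, MMP14 and MMP10 from RefSeq on GRCh38.p14. They are given 5′ to 3′ on the gene's strand, with an AP-1 motif in capitals: TIMP1 chrX:47582186-47582435 (+), MMP14 chr14:22836335-22836584 (+) and MMP10 chr11:102780629-102780878 (-).
TIMP1: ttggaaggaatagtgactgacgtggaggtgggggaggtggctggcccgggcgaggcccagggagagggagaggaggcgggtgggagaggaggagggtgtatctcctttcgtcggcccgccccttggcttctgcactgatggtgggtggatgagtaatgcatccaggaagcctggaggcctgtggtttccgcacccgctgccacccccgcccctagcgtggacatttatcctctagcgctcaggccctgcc
MMP14: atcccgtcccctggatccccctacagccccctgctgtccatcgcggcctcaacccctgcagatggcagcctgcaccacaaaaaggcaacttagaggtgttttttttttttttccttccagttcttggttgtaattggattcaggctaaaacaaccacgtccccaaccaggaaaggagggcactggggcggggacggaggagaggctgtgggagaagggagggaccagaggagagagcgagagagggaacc
MMP10: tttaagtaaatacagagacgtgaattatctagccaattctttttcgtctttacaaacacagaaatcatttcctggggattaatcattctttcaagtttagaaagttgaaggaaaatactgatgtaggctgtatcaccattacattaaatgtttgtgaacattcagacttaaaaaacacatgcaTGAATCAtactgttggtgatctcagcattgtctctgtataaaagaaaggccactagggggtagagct

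The AP-1 motif TGANTCA, searched on both strands, was found in 1 of the 4 member windows at hand, that of MMP10, as TGAATCA from 67 to 61 bases before the start; 6.57% of 35116 RefSeq promoter windows of the same length hold it. The ETS motif CGGAAG, searched on both strands, was in 0 of 4 (TIMP1, TIMP3, MMP10 and MMP14), where 16.48% of the windows hold it. These are matches of letters and not sites, and other forms of the AP-1 and ETS motifs were not searched. Of the 4 genes, MMP10 was the one in the lowest 25% of values in every sample. Windows of MMP1, MMP2, MMP3, MMP9, ADAMTS1 and TIMP2 were not analysed here.

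By the RefSeq gene table of the same assembly, MMP10, MMP1 and MMP3 lie beside each other on chromosome 11, and MMP1 lies within the pseudogene locus WTAPP1, which also overlaps MMP3. TIMP1 lies inside SYN1 and TIMP3 inside SYN3, TIMP2 overlaps CEP295NL, and MMP9 overlaps SLC12A5-AS1. Reads of overlapping transcripts are kept apart here only by the probe sets' own sequences, which were not used. In T4 against S1 and T4R against T4, the fitted differences of these 3 neighbours on chromosome 11 were 0.34 and -0.39 for MMP3, 0.22 and -0.22 for MMP1, and 0.13 and -0.08 for MMP10, of which those of MMP3 were called; whether the genes differ in this was not tested.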

How the data were processed

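Expression was measured in 9 T4R, 3 T4 and 3 S1 samples, grouped by their titles. RNA came from a Trizol extract, and its biotin label from Affymetrix's usual procedure, per the labels' protocols. The deposited values are log2 levels per probe set, from 6.21 to 14.5. How the authors summarised, background-corrected and normalized them, and whether they treated both tables as 1, is not stated in the labels or files. Of 22215 probe sets, the platform annotations gave 1 gene to 19707, several to 614, conflicting genes to 188 and no gene to 1706.

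The probe set with the highest mean over all samples stood for its gene, and the dimmest 25% of genes were dropped. Fits used lmFit and eBayes of limma 3.58.1 in R 4.3.3 over all 15 samples, with the table as a block and T4R, T4 and S1 as groups, 2-sided. A second fit split T4R into the 3 protease inhibitors and the other 6 agents. Means, SDs and ranges are of the deposited log2 values; differences and SEs come from the fits. The procedure was tested on simulated data.

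S1 and T4 share sample numbers. Deviations of same-numbered samples correlated at 0.282, 0.315 and 0.391 over genes, so the numbers were used as a replicate block, but only in alternatives. The main fits had no such block and are not paired. Samples 1 and 2 correlated as well across numbers (0.289 and 0.314), and nothing in the labels says what a number marks. Alternatives changed the probe set rule, the filter, the table term, the normalization, the array weights, the replicate block and the samples kept; leaving out both samples numbered 3 was added after seeing the data. All 10 members are named, and from each other list the 3 genes with the smallest p among those called. The members and lists were chosen with earlier results of these data known. Protein sequences were not analysed here.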

Additional observations from a re-analysis of the deposited data

Results flagged for a closer look

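Within the 9 T4R samples, MMP9 was flagged in 1 sample: it stood at 7.03 with LY294002, and the nearest sample was at 6.91. That gap, 0.496 of the group's whole range, only just passed the critical value of 0.493. The deposited values were used, and with the fitted table effect removed the highest sample of the second table was at 6.96. The 10 members' T4R groups were examined in this way, and chance marks about 1 in 20 groups. MMP9 lay close to the low end of the values in these samples, and LY294002 lies in the first table.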

How the results depend on the processing

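ADAMTS1 kept its direction and call in T4 against S1 and T4R against T4 under all alternatives run, and MMP14 in T4R against S1. Calls that other members lost or gained stand beside their results. With array weights 4180 genes passed in T4 against S1, 3160 in T4R against T4, 3854 in T4R against S1 and 30 between protease inhibitors and other agents. Leaving out 1 sample gave 1687 to 2788, 948 to 1595, 1584 to 2412 and 0 to 4 genes in the same order of comparisons. The replicate block over S1 and T4 only gave 1784 genes (1040 higher, 744 lower), and that with the table block 2728.

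Signs turned only for differences that were not called. MMP14 in T4R against T4 was -0.17 with the largest interquartile range, -0.037 with the mean of probe sets, -0.076 with array weights and -0.075 without both samples numbered 3, and leaving out 1 sample gave -0.053 (T4 sample 3) to 0.14. TIMP1 in T4R against S1 was 0.13 with no table block, 0.16 with quantile normalization across tables and 0.037 both in the first table and without both samples numbered 3, and leaving out 1 sample gave -0.28 to 0.037 (S1 sample 3). In T4R against S1, MMP3 was 0.0076 with quantile normalization across tables, and leaving out 1 sample gave -0.035 to 0.013 for MMP1 and -0.063 to 0.11 for MMP2. Leaving out 1 sample gave -0.020 to 0.11 for MMP9 in T4 against S1. Between protease inhibitors and other agents, ADAMTS1 was -0.0073 with no table block, -0.0032 in the first table and -0.0063 with quantile normalization across tables. In the first table the class of other agents was the LY294002 sample alone. The first table gave -0.00063 for MMP1, 0.0066 for MMP10 and 0.11 for TIMP2 there. Leaving out 1 sample gave -0.12 to 0.10 for ADAMTS1, -0.024 to 0.021 for MMP1, -0.072 to 0.0024 for MMP10 and -0.54 to 0.0014 for TIMP1 between these agents. Of the other genes named, calls were lost in T4 against S1 for MMP24 and ETV1 under 6 alternatives each, ADAM17 under 3, ETV5 and CD14 under 2 each and SPOCK1 under 1; in T4R against T4 for ADAM17 under 5, ADAM15 and EPCAM under 4 each, and MMP24 and ETS1 under 3 each; and in T4R against S1 for ETS2 and COL3A1 under 14 each, CD44 under 8, PCOLCE and KRT8 under 7 each, COL1A1 under 4, MMP28 under 3, CD14 under 2 and COL4A2 under 1. The cause of these changes was not tested. Values near the low end limit what can be read from MMP1, MMP3, MMP9 and MMP10.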

Other observations

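In T4R against S1, where 23.2% of all genes passed, genes of the neighbouring lists that are not members were called as follows. MMP28, an epithelial metalloproteinase, averaged 9.34 ± 0.51 in T4R (n = 9) and 7.89 ± 0.85 in S1 (SD, n = 3), a fitted difference of 1.39 ± 0.36 (SE, adjusted p = 0.0134 by limma); without S1 sample 3 it was 0.48 (adjusted p = 0.302). PLAT was lower by 1.33 ± 0.22 (0.000897) and SPOCK1 by 2.51 ± 0.46 (0.00171), and with PCOLCE at -0.24 ± 0.07 (0.0286), or -0.37 (0.00591) without S1 sample 3, these were the 3 lower of 13 other inhibitors and activators tested, none of which was higher. Of 12 AP-1 and ETS factors, ETS2 was lower, by 1.16 ± 0.37 (0.0387). The calls of PCOLCE, ETS2 and CD44 were each lost without S1 sample 1 (0.108, 0.12 and 0.0895) or 2 (0.119, 0.111 and 0.07), and without the sample of GM6001 (0.0638, 0.0661 and 0.0582) or of the MMP and ADAM inhibitor (0.0575, 0.062 and 0.0575); that of PCOLCE was also lost without LY294002 (0.0631), and that of ETS2 without S1 sample 3 (0.0557) or any 1 of LY294002, PD98059, Tyrphostin AG 1478 and AIIB2 (0.0501 to 0.0832). Among 15 matrix and shed substrates, 1 was higher, the fibrillar collagen gene COL1A1 at 1.46 ± 0.43 (0.0237), or 0.41 (0.487) without S1 sample 3, and 2 were lower, COL4A2 at -1.06 ± 0.19 (0.00132), or -0.66 (0.0268) without S1 sample 3, and the hyaluronan receptor CD44 at -0.53 ± 0.15 (0.024). No ADAM gene and no other ADAMTS gene of the 9 and 2 tested was called in T4R against S1 by limma.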
